A study of Mus musculus with 6 samples.

Results

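Axon guidance ligands and receptors were examined in microinjected dorsal root ganglia (DRGs), the ganglia that hold the cell bodies of sensory neurons. They comprised every gene symbol in the read counts that belongs to the semaphorins of classes 3 to 7, the plexins, neuropilins, Eph receptors, ephrins, netrins, Slits, Robo receptors 1 to 4, or Unc5 receptors a to d, whatever its change. These were 70 of the 48440 rows, 34 ligands, 33 receptors, and 3 antisense RNAs of *Plxna4*. RNA sequencing compared DRGs of male mice, labelled WT, that had received a unilateral microinjection at L3/4 of AAV5-*Gfp* (3 libraries) or of AAV5-*V1* and AAV5-*V2* mixed (AAV5-*V1+V2*, 3 libraries). AAV5-*Gfp* is an adeno-associated virus that carries green fluorescent protein, and the mixture carries both transcript variants of *NIS-lncRNA*, a long noncoding RNA. The deposited text gives both 4 and 5 weeks after microinjection. Each group received its own virus preparation, so that preparation and transcript cannot be told apart, and neither the animals behind each library nor their strain or age are given in the labels, and the promoter that drives the transcripts is not given in the sources used here. The spread between libraries may therefore be partly technical.

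Guidance cues steer growing axons by binding receptors on the growth cone, and many of them repel. Semaphorins signal through plexins, with neuropilins as co-receptors for most secreted class 3 members. Slits bind Robo receptors, netrins bind DCC and Unc5 receptors, and ephrins bind Eph receptor tyrosine kinases on touching cells. Many of these genes stay on in adult sensory neurons and glia, and several class 4 semaphorins and class B plexins are also used by immune cells.

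In AAV5-*V1+V2* DRGs, *Sema4a*, *Sema4d*, and *Plxnb2* were higher, and *Epha6*, *Slit1*, *Robo2*, *Ephb1*, *Sema4f*, *Plxna4*, *Sema6d*, *Unc5c*, *Efna5*, *Sema5a*, and *Sema6a* were lower than in AAV5-*Gfp* DRGs. The rises ranged from 49.5% to 117%, and the falls from 18.2% to 40.5% of the AAV5-*Gfp* level. Of the 70 genes, 66 passed the filter on low counts and were tested with edgeR's quasi-likelihood test (Benjamini-Hochberg adjusted p under 0.05 over 18593 genes). Thus 3 of 66 (4.55%) were higher, against 10.1% of all genes tested, and 11 of 66 (16.7%) were lower, against 5.27%. The median log2 fold change was -0.07 over the 66 genes and -0.0003 over all genes tested. In each of the 14 the libraries of the groups did not overlap, which was so in 10 of the 66 genes where AAV5-*V1+V2* was above (23.4% of all genes tested) and in 22 where it was below (22% of all genes tested). With 3 libraries against 3, an exact two-sided permutation test of a single gene cannot go below p = 0.1. These calls depended on the AAV5-*Gfp* libraries: without replicate 1 only *Epha6* passed, and without replicate 2 or without replicate 3 none of the 66 did. Without AAV5-*V1+V2* replicate 2, *Plxnb2*, *Epha6*, and *Sema4f* passed. Lower calls were lost among all genes tested too. Of all genes called, 65.6% were higher with all libraries and 81.3% without AAV5-*Gfp* replicate 1. That share was 100% without AAV5-*Gfp* replicate 2 or without replicate 3, and 87.2% without AAV5-*V1+V2* replicate 2. At an unadjusted p under 0.05 in edgeR's test, 6 of the 66 genes were higher and 21 lower with all libraries, against 19.2% and 15.5% of all genes tested. Without AAV5-*Gfp* replicate 2 these were 4 and 20 genes, against 15.4% and 10.7% of all genes, and without replicate 3 they were 4 and 18, against 15.5% and 9.58%. No other tool was run with a library left out.

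**Figure D1:**
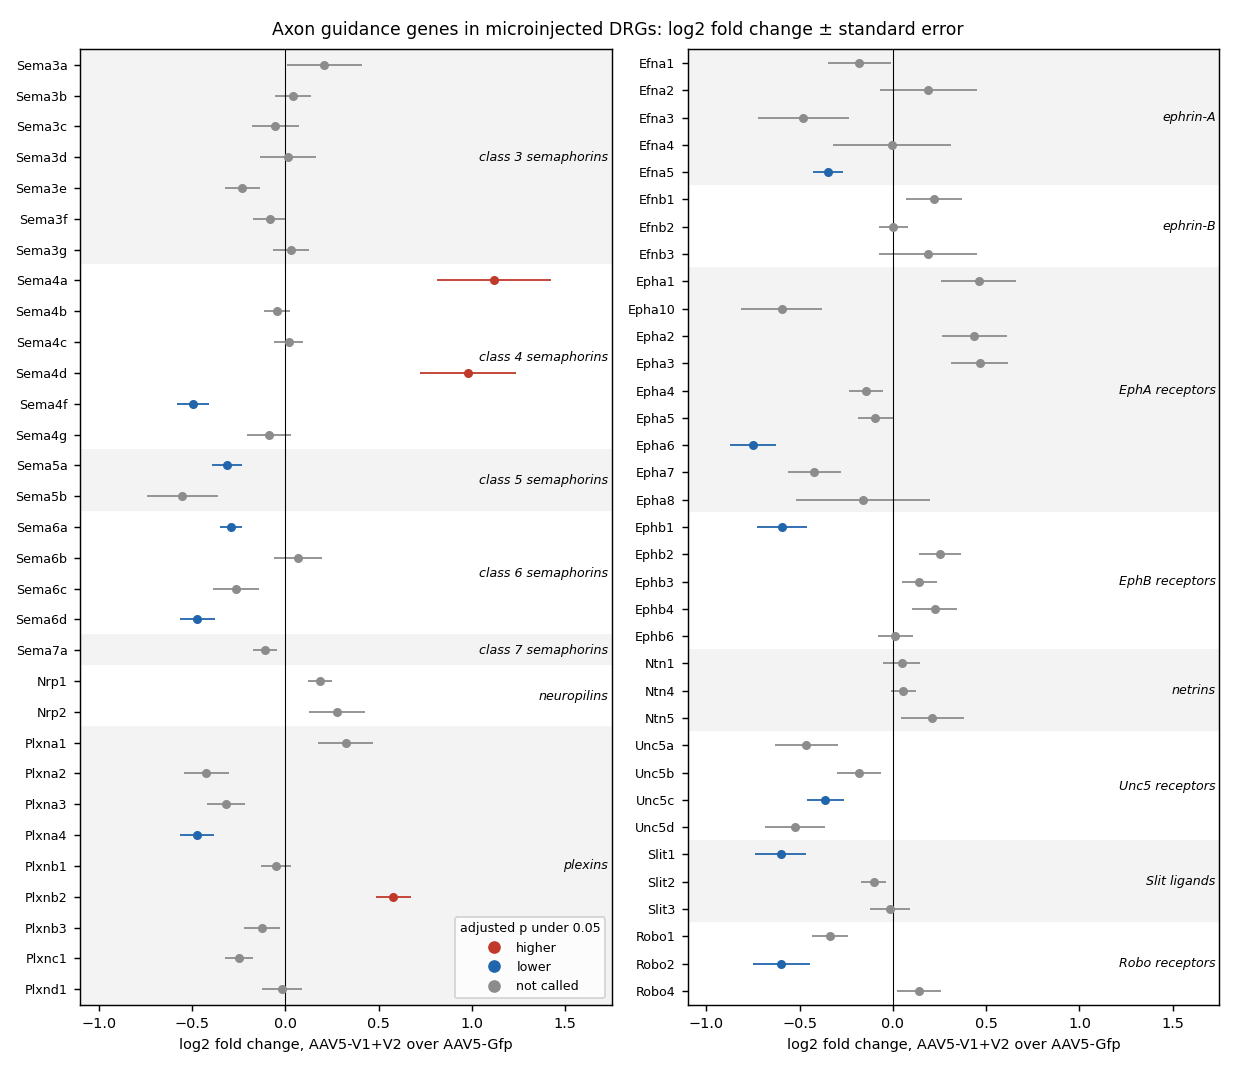
Log2 fold change (x axis, AAV5-V1+V2 over AAV5-Gfp, TMM scaling) with its standard error for the 66 guidance genes tested, grouped by family. Red marks the 3 higher and blue the 11 lower genes (adjusted p under 0.05). Scaled instead to neuron markers 0 of the 66 genes were lower, and 99.4% of all genes called were higher. With that scaling Plxna4, Unc5c, Efna5, Sema5a, and Sema6a lay at 0.0018 to 0.20, none past the threshold.

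Neuron markers moved in the same direction as the 11 lower genes. All 12 neuron markers (*Rbfox3*, *Tubb3*, *Uchl1*, *Nefl*, *Nefm*, *Prph*, *Avil*, *Isl1*, *Pou4f1*, *Scn9a*, *Scn10a*, and *Snap25*) had a negative log2 fold change, with a median of -0.43, and 2 of them passed (*Rbfox3* at -0.93 and *Pou4f1* at -0.43). The number of them that passed as lower was 7 with DESeq2 and with limma-voom with sample weights, 5 without the filter on low counts and with the replicate number as a block, and 1 with total counts, and it lay between 0 (without any one AAV5-*Gfp* library) and 7 (without AAV5-*V1+V2* replicate 1) when a library was left out. Their summed level was between 9345 and 10224 CPM (counts per 1000000, TMM-scaled) after AAV5-*Gfp*, and was 5882, 8191, and 8706 CPM in AAV5-*V1+V2* replicates 1, 2, and 3. The summed level of the 11 lower guidance genes was 1517, 1587, and 1715 CPM after AAV5-*Gfp* and 1044, 1173, and 1236 CPM after AAV5-*V1+V2*. Both sums were thus lowest in AAV5-*V1+V2* replicate 1. The libraries were then scaled so that the 12 neuron markers had the same mean log2 level in each. The median of all genes tested moved to 0.48. Of the 66 guidance genes, 0 were lower with this scaling (also 0 at an unadjusted p under 0.05 in edgeR's test). That was near the share of all genes tested, of which 0.705% were lower at an unadjusted p under 0.05 in the same test. Of all genes called with this scaling, 99.4% were higher. On that scale the 11 genes had log2 fold changes from -0.28 (*Epha6*) to 0.20 (*Sema6a*), and *Sema4a* (1.70), *Sema4d* (1.55), and *Plxnb2* (1.08) stayed higher. In whole ganglia, fewer cells of a type, less RNA per cell, and a share diluted by RNA of other cells cannot be told apart.

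Immune markers moved with the 3 higher genes. Of 10 macrophage markers 8 were higher, and their sum was 123 to 165 CPM after AAV5-*Gfp* and 252 to 466 CPM after AAV5-*V1+V2*. Of 10 T and natural killer cell markers 8 were higher (4.07 to 10.5 CPM against 37.4 to 82.6 CPM), as were 8 of 8 B and plasma cell markers (11.7 to 21.04 CPM against 253 to 397 CPM). None of these markers was at 0 in all libraries. Their part in the higher guidance genes was not tested. Of the resident cells, satellite glial markers (1 of 8 higher, 0 lower, median -0.04) and myelinating Schwann cell markers (0 of 8 called, median 0.13) had overlapping sums in the 2 groups. Markers of fibroblasts and the nerve sheath were between 1329 and 1722 CPM after AAV5-*Gfp* and between 2064 and 3017 CPM after AAV5-*V1+V2*. Of these 8 markers 2 were higher, and all 8 had a positive log2 fold change, with a median of 0.49. Endothelial markers were between 182 and 189 CPM and between 176 and 211 CPM (1 of 8 higher and 1 lower, median 0.03). Of all genes tested 10.1% were higher and 5.27% lower, and counts of 1 or 2 of 8 are too small to set against these shares.

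**Figure D2:**
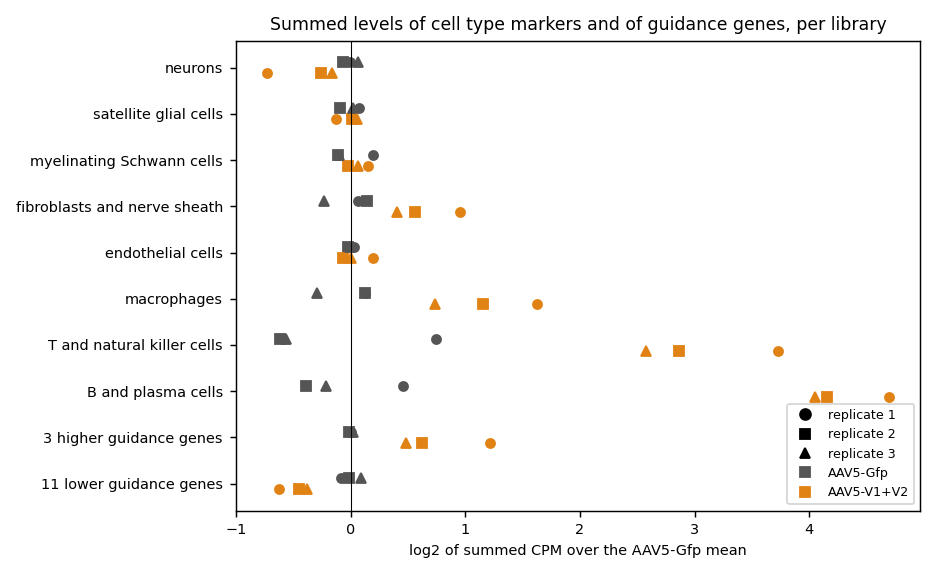
Summed CPM of each marker list and of the 3 higher and 11 lower guidance genes, as log2 over the AAV5-Gfp mean (x axis), with 1 symbol for each library. In AAV5-V1+V2 replicate 1 (orange circles) the neuron markers and the 11 lower genes were at their lowest sum, and the immune markers and the 3 higher genes at their highest. Fibroblast and nerve sheath markers and endothelial markers were also at their highest sum there, and satellite glial markers at their lowest.

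The plot of counts by library shows the 14 genes. In 11 of them the AAV5-*V1+V2* library furthest from the AAV5-*Gfp* mean was replicate 1. The share of all genes tested for which this held was not counted. Over the genes tested, counts of replicate 1 also differed most from those of its group. The chi-square per degree of freedom was 34.6 and 52.8, against 9.91 between replicates 2 and 3. Without AAV5-*V1+V2* replicate 1, 13 of the 14 still passed in edgeR's test, all but *Unc5c* (adjusted p = 0.0560).

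**Figure D3:**
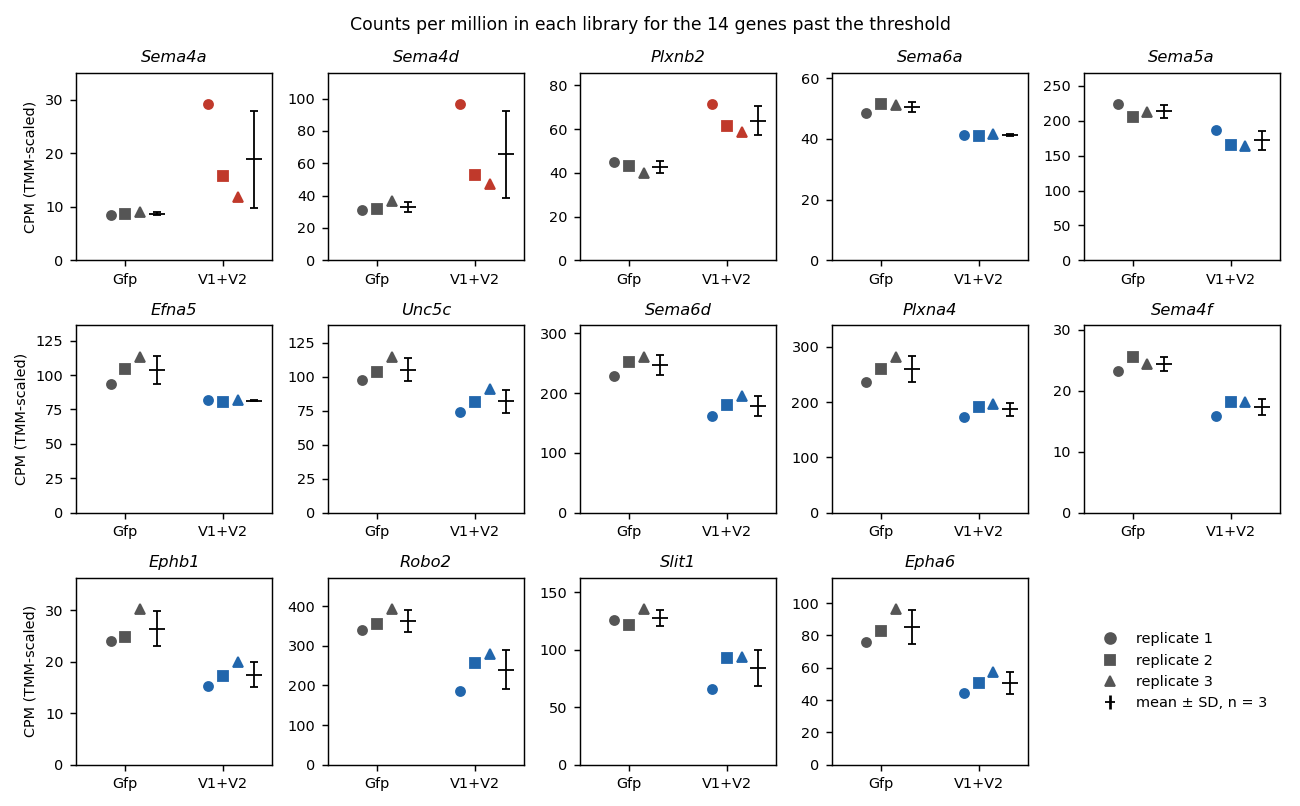
TMM-scaled CPM (y axis from 0) in each of the 3 AAV5-Gfp and 3 AAV5-V1+V2 libraries for the 14 genes that passed, with the mean and SD of each group. No group of 3 overlapped the other in any panel, and Sema4a and Sema4d had their highest value in AAV5-V1+V2 replicate 1, at 29.1 and 96.4 CPM.

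The DNA upstream of 4 of the 14 genes is printed so that the higher and the lower genes can be read side by side. They are the higher genes and the 2 with the largest fall among the 8 called genes for which a RefSeq start coincides with the start of the gene in GENCODE M21. Of the 14 genes, 11 had a window in the RefSeq table (GRCm38.p6), and *Plxna4*, *Sema6a*, and *Slit1* had none. Each run holds the 250 bases before the start, 5′ to 3′ on the gene's strand, which is the minus strand for all 4. Capitals mark a GC box (GGGCGG or CCGCCC) or a CCAAT box (CCAAT or ATTGG), and no matches overlapped in these windows. The windows are chr16:60605532-60605781 for *Epha6*, chr16:74411826-74412075 for *Robo2*, chr15:89180789-89181038 for *Plxnb2*, and chr3:88461183-88461432 for *Sema4a*.
Epha6: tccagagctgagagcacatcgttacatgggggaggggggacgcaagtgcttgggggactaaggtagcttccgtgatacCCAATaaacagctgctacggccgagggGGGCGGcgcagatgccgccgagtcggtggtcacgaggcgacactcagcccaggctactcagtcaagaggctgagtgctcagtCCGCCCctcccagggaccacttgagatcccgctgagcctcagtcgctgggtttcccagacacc
Robo2: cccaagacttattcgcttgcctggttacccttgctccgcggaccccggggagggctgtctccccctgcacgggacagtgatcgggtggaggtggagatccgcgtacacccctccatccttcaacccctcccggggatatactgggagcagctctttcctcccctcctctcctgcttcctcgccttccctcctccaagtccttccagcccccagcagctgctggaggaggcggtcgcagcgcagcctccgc
Plxnb2: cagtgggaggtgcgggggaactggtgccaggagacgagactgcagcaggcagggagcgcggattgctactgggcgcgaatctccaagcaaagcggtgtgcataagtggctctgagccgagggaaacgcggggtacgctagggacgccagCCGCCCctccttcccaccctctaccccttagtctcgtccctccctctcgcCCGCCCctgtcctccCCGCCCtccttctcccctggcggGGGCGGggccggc
Sema4a: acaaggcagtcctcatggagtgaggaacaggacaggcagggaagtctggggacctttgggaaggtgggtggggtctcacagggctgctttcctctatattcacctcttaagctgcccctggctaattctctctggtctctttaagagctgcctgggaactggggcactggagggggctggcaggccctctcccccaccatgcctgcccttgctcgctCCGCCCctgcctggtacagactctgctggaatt
A GC box was present in 4 copies for *Plxnb2*, in 2 for *Epha6*, and in 1 for *Sema4a*, and in none for *Robo2*, whereas 32.7% of all 32851 RefSeq windows held at least 1. Of the 4 windows printed, that of *Epha6* alone held a CCAAT box, which 33.8% of all windows held. Neither a TATA box (TATAAA or TTTATA, in 12.4% of all windows) nor CCGGAA (or TTCCGG, in 12.03%) matched in any of the 8 windows. CCGGAA is only a form of the site bound by ETS factors such as ELF1. The shorter core GGAA was not searched for, so that the windows may hold other ETS sites. The number of CpG dinucleotides was 15 for *Epha6*, 14 for *Robo2*, 20 for *Plxnb2*, and 2 for *Sema4a*, against a median of 6 over all windows. *Robo2* has 3, *Sema4a* has 4, and *Plxnb2* has 2 starts in RefSeq, and gene counts do not show which was used.

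Semaphorins were the largest group of ligands. Of 20 tested, 2 were higher and 4 lower, with a median log2 fold change of -0.07. The share of higher genes was near the 10.1% of all genes tested. The share of lower genes was above the 5.27% of all genes tested, though the counts are small. Both higher ones were of class 4, whose members span the membrane. *Sema4a*, a semaphorin known from dendritic cells and T cells, had 8.49, 8.57, and 9.005 CPM after AAV5-*Gfp* and 29.1, 15.7, and 11.8 CPM after AAV5-*V1+V2*. On the log2 scale the change was 1.12 (standard error 0.30, adjusted p = 0.0484). The 3 AAV5-*Gfp* libraries lay close together, whereas replicate 1 of AAV5-*V1+V2* was well above the other two. *Sema4d*, also called CD100 on lymphocytes and a ligand of class B plexins, had 31.0, 31.97, and 36.7 CPM against 96.4, 52.8, and 47.3 CPM. On the log2 scale the change was 0.98 (standard error 0.26, adjusted p = 0.0445), with the same library highest. Without AAV5-*V1+V2* replicate 1 the log2 fold change was 0.67 for *Sema4a* and 0.60 for *Sema4d*, and both still passed. In limma-voom neither passed (adjusted p = 0.0824 and 0.0560).

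*Sema4f*, a class 4 semaphorin of neurons, went the other way. It had 23.2, 25.6, and 24.3 CPM after AAV5-*Gfp* and 15.8, 18.1, and 18.1 CPM after AAV5-*V1+V2* (log2 fold change -0.49, standard error 0.09, adjusted p = 0.0176). *Sema4b*, the class 4 member with the highest level per kilobase of exon, had 50.5 ± 2.96 CPM (SD, n = 3) and 49.0 ± 2.05 CPM (SD, n = 3). A ratio of 2 genes within a library does not depend on how libraries are scaled. Here and below, each called gene was set against the uncalled gene of its family with the highest level per kilobase. Both genes were thus picked by their calls in these same libraries. The ratios and their p-values are therefore a description and add no independent support. The ratio of *Sema4f* to *Sema4b* counts was 0.451 to 0.528 after AAV5-*Gfp* and 0.339 to 0.362 after AAV5-*V1+V2*, that of *Sema4d* to *Sema4b* 0.631 to 0.681 and 0.944 to 2.07, and that of *Sema4a* to *Sema4b* 0.167 to 0.177 and 0.236 to 0.624. None of these 3 ratios overlapped between groups (exact two-sided permutation p = 0.1 each, the smallest possible).

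Class 5 and class 6 semaphorins, which are transmembrane ligands, held 3 further lower genes. *Sema5a*, which carries thrombospondin repeats, had 223, 206, and 212 CPM after AAV5-*Gfp* and 187, 165, and 164 CPM after AAV5-*V1+V2* (log2 fold change -0.31, standard error 0.08, adjusted p = 0.0423). *Sema5b* had a larger difference of -0.55 but a standard error of 0.19 and did not pass (adjusted p = 0.0885). The ratio of *Sema5a* to *Sema5b* counts, 18.7 to 23.5 against 19.6 to 36.9, overlapped between groups.

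*Sema6d*, a ligand of class A plexins and by level per kilobase the third of all 66, had 229, 252, and 261 CPM after AAV5-*Gfp*. After AAV5-*V1+V2* it had 161, 179, and 195 CPM (log2 fold change -0.47, standard error 0.09, adjusted p = 0.0234). *Sema6a*, which binds the plexins A2 and A4, had the smallest fall of the 11, from 48.4, 51.3, and 51.3 CPM to 41.2, 40.8, and 41.6 CPM. On the log2 scale the change was -0.29 (standard error 0.06, adjusted p = 0.0249), and the values within each group were within 3 CPM of each other. Against *Sema6c*, the uncalled class 6 member with the highest level, the ratio of counts overlapped between groups for *Sema6d* (11.8 to 17.0 and 10.05 to 13.8) and *Sema6a* (2.50 to 3.35 and 2.57 to 3.13).

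The 7 class 3 semaphorins, secreted cues, had no member past the threshold, and their log2 fold changes ran from -0.23 to 0.21. *Sema3b* had the highest level per kilobase of all guidance genes and was at 161 ± 19.8 CPM (SD, n = 3) after AAV5-*Gfp* and 166 ± 7.45 CPM (SD, n = 3) after AAV5-*V1+V2*. *Sema3g* was at 37.9 ± 0.54 CPM and 38.7 ± 4.75 CPM. *Sema7a*, which is tethered to the membrane by a lipid anchor and binds plexin C1, was at 33.0 ± 1.12 CPM and 30.6 ± 0.734 CPM (adjusted p = 0.271).

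Among the plexins, 1 of 9 was higher and 1 lower, where 10.1% and 5.27% of all genes tested were. Counts in single families, here and below, are too small to set against these shares. *Plxnb2*, a receptor of class 4 semaphorins, had 45.1, 43.1, and 39.9 CPM after AAV5-*Gfp* and 71.3, 61.4, and 58.7 CPM after AAV5-*V1+V2*. On the log2 scale the change was 0.58 (standard error 0.09), and its adjusted p of 0.0154 was the smallest of the 66 genes. The other class B plexins had log2 fold changes of -0.05 and -0.13. *Plxna4*, which with neuropilin 1 forms the receptor of SEMA3A on sensory axons, had 236, 261, and 282 CPM after AAV5-*Gfp* and 173, 192, and 196 CPM after AAV5-*V1+V2* (log2 fold change -0.47, standard error 0.09, adjusted p = 0.0225). Its 3 antisense RNAs had at most 2 counts in any library, too few for a fold.

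*Plxnc1*, the receptor of SEMA7A and the plexin with the highest level per kilobase, was at 166 ± 12.8 CPM and 140 ± 2.30 CPM (SD, n = 3 each, adjusted p = 0.0620). Relative to *Plxnc1* counts, *Plxna4* stood at 1.49 to 1.63 after AAV5-*Gfp* and 1.26 to 1.38 after AAV5-*V1+V2*, and *Plxnb2* at 0.220 to 0.285 and 0.413 to 0.519, both without overlap (exact two-sided permutation p = 0.1). The neuropilins did not pass. *Nrp1* was at 149 ± 6.18 CPM and 169 ± 4.32 CPM (adjusted p = 0.0917), and *Nrp2* at 122 ± 8.59 CPM and 148 ± 32.4 CPM (adjusted p = 0.225), its highest library being AAV5-*V1+V2* replicate 1 at 185 CPM.

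Of the Slit and Robo genes, 1 ligand and 1 receptor fell. *Slit1*, a repellent that also promotes branching of sensory axons, had 126, 121, and 135 CPM after AAV5-*Gfp* and 65.8, 92.3, and 93.8 CPM after AAV5-*V1+V2* (log2 fold change -0.60, standard error 0.14, adjusted p = 0.0310). *Slit3* was at 79.4 ± 2.12 CPM and 78.6 ± 11.8 CPM (SD, n = 3 each). The ratio of *Slit1* to *Slit3* counts was 1.57 to 1.66 after AAV5-*Gfp* and 0.719 to 1.37 after AAV5-*V1+V2*, without overlap.

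*Robo2*, a Slit receptor, had 339.6, 356, and 393 CPM after AAV5-*Gfp* and 185, 256, and 278 CPM after AAV5-*V1+V2*. On the log2 scale the change was -0.60 (standard error 0.15, adjusted p = 0.0413). *Robo1* lay just outside the threshold at 68.4 ± 4.64 CPM and 54.1 ± 5.83 CPM (log2 fold change -0.34, standard error 0.09, adjusted p = 0.0519). The ratio of *Robo2* to *Robo1* counts was 4.85 to 5.63 and 3.76 to 4.86, which overlapped (exact two-sided permutation p = 0.2). *Robo3* had 3 to 9 counts in each library and was not tested.

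Of the Eph receptors, 2 of 14 fell, 1 of each class. *Epha6*, a receptor of ephrin-A ligands, fell the most of all 66 genes, from 75.7, 82.8, and 96.4 CPM to 44.1, 50.3, and 57.3 CPM (log2 fold change -0.75, standard error 0.12, adjusted p = 0.0159). *Epha5*, the EphA gene with the next highest level per kilobase, was at 58.9 ± 5.27 CPM and 55.2 ± 4.57 CPM (adjusted p = 0.504). The ratio of *Epha6* to *Epha5* counts was 1.33 to 1.57 after AAV5-*Gfp* and 0.762 to 1.15 after AAV5-*V1+V2*, without overlap. *Ephb1*, a receptor of ephrin-B ligands with a known part in pain signalling, had 24.1, 24.8, and 30.3 CPM against 15.2, 17.2, and 20.1 CPM. On the log2 scale the change was -0.59 (standard error 0.13, adjusted p = 0.0293). *Ephb6*, which lacks kinase activity, was at 24.7 ± 2.04 CPM and 24.9 ± 2.14 CPM, and the ratio of *Ephb1* to *Ephb6* counts was 0.915 to 1.35 against 0.628 to 0.838, without overlap. *Ephb4*, a receptor of ephrin-B2 in blood vessels, was at 15.1 ± 2.25 CPM and 17.7 ± 1.01 CPM (adjusted p = 0.232).

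The ephrins had 1 lower gene among 8. *Efna5*, a lipid-anchored ligand of EphA receptors, had 93.4, 104, and 113 CPM after AAV5-*Gfp* and 81.6, 80.8, and 81.9 CPM after AAV5-*V1+V2* (log2 fold change -0.35, standard error 0.08, adjusted p = 0.0318). The AAV5-*V1+V2* libraries lay within 2 CPM of each other. *Efna1* was at 7.93 ± 0.156 CPM and 6.998 ± 1.61 CPM, and its ratio to *Efna5* overlapped between groups. The ephrin-B ligands *Efnb2* (48.5 ± 2.26 CPM and 48.5 ± 3.67 CPM) and *Efnb1* (15.1 ± 2.88 CPM and 17.6 ± 1.40 CPM) did not pass.

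Of the 4 Unc5 receptors, which mediate repulsion by netrins, 1 passed, and their log2 fold changes were between -0.53 and -0.18 with TMM scaling. With scaling to neuron markers *Unc5c* was at 0.11 and did not pass (adjusted p = 0.522 in edgeR's test). *Unc5c* had 97.7, 103, and 115 CPM after AAV5-*Gfp* and 73.8, 81.4, and 90.7 CPM after AAV5-*V1+V2* (log2 fold change -0.36, standard error 0.10, adjusted p = 0.0472). It was the call most often lost, kept in 8 of 16 alternative analyses. The ratio of *Unc5c* to *Unc5d* counts was 7.02 to 8.78 and 8.14 to 9.43, which overlapped (exact two-sided permutation p = 0.3) and was on average higher in the AAV5-*V1+V2* libraries, by 0.15 on the log2 scale. *Unc5d* was at 13.4 ± 2.70 CPM and 9.29 ± 0.929 CPM (adjusted p = 0.0645). The netrins *Ntn1* (59.5 ± 7.41 CPM and 61.5 ± 3.37 CPM) and *Ntn4* (27.4 ± 0.311 CPM and 28.5 ± 1.36 CPM) differed by less than the larger SD of the groups.

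The genes with an adjusted p from 0.05 to 0.1 numbered 10, of which 8 had a negative log2 fold change with TMM scaling. Of these, *Plxna2*, *Plxna3*, *Epha7*, *Plxnc1*, and *Robo1* lay above 0 when scaled to neuron markers, *Plxna2* and *Epha7* only slightly. The genes from 0.05 to 0.1 are taken up next. Those named here are *Plxna2*, *Plxna3*, *Epha7*, and *Epha3*, which were picked out after their values were seen. *Plxna2* was at 222 ± 20.3 CPM after AAV5-*Gfp* and 166 ± 23.5 CPM after AAV5-*V1+V2* (log2 fold change -0.42, adjusted p = 0.0534). *Plxna3* had a log2 fold change of -0.32 (adjusted p = 0.0718) and *Epha7* of -0.42 (adjusted p = 0.0843). *Epha3*, an ephrin-A receptor, was the one Eph gene among the 10 with a positive value, 0.46 (adjusted p = 0.0766), at 17.8 ± 2.51 CPM and 24.6 ± 4.32 CPM.

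Levels of different genes were compared per kilobase of exon (GENCODE M21). After AAV5-*Gfp* the highest was *Sema3b* at 33.7 ± 4.14 CPM per kb (SD, n = 3), followed by *Efna5* (25.7 ± 2.49), *Sema6d* (23.4 ± 1.56), *Slit1* (21.5 ± 1.24), *Robo2* (21.4 ± 1.62), *Plxnc1* (19.9 ± 1.53), *Plxna4* (18.4 ± 1.65), and *Epha6* (16.1 ± 1.99), all in CPM per kb. From *Efna5* on, each gene in this order differed from the next by less than the sum of their SDs. After AAV5-*V1+V2*, *Nrp1* at 17.3 ± 0.442 CPM per kb lay within the spread of *Sema6d* (16.9 ± 1.60) and by less than the sum of their SDs above *Plxnc1* (16.8 ± 0.276), and these were followed by *Slit1* (14.2 ± 2.66), *Robo2* (14.1 ± 2.86), and *Plxna4* (13.3 ± 0.859). Thus 6 of the 8 guidance genes with the highest level after AAV5-*Gfp* were among the 11 that fell (TMM scaling). This order rests on AAV5-*Gfp* libraries that also entered the test, and the share of lower genes at such levels among all genes was not counted. Together the 70 genes took up 0.363% to 0.373% of the counts after AAV5-*Gfp* and 0.337% after AAV5-*V1+V2*.

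**Figure D4:**
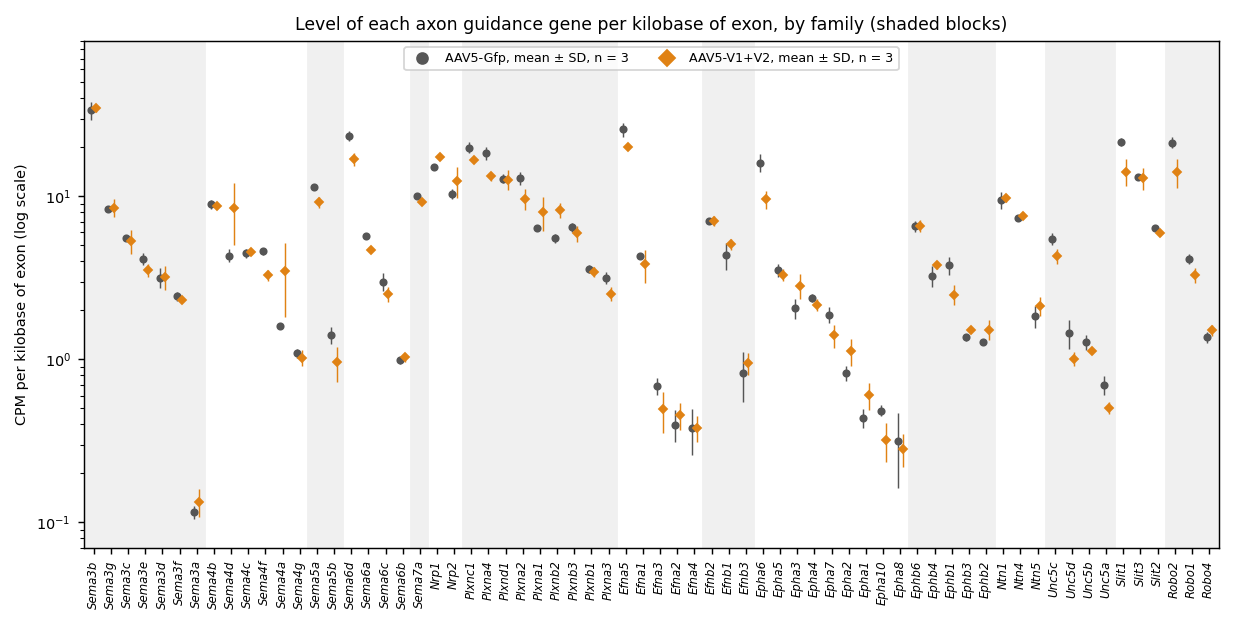
Mean CPM per kilobase of exon (log axis) with SD (n = 3) for the 66 guidance genes in AAV5-Gfp (grey circles) and AAV5-V1+V2 (orange diamonds) DRGs, ordered by level within each family. Sema3b is highest in both groups, and Slit1, Robo2, Sema6d, and Epha6 lie lower after AAV5-V1+V2, though none of these passes when libraries are scaled to neuron markers.

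Of the 11 lower genes, all but *Sema4f* had a long genomic span. The median span of the 11 from the first to the last annotated base was 433 kb, against 38.3 kb for the 52 genes that did not pass and 25.2 kb for the 3 higher genes. Of the 31 guidance genes spanning 100 kb or more, 10 were lower and 1 was higher, and of the 35 shorter ones, 1 was lower (*Sema4f*, 27.9 kb) and 2 were higher. The same split was present among all genes tested with a span in GENCODE M21. Of 2599 genes of 100 kb or more 22.4% were lower, and of 15301 shorter genes 2.35% were. *Epha6*, with the largest fall, is also the longest of the 14, spanning bases 59653483 to 60605531 of chromosome 16 (GRCm38, minus strand). *Robo2* spans bases 73891839 to 74411825 of the same chromosome. Span is given as a description, with no test, since genes are not independent replicates.

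**Figure D5:**
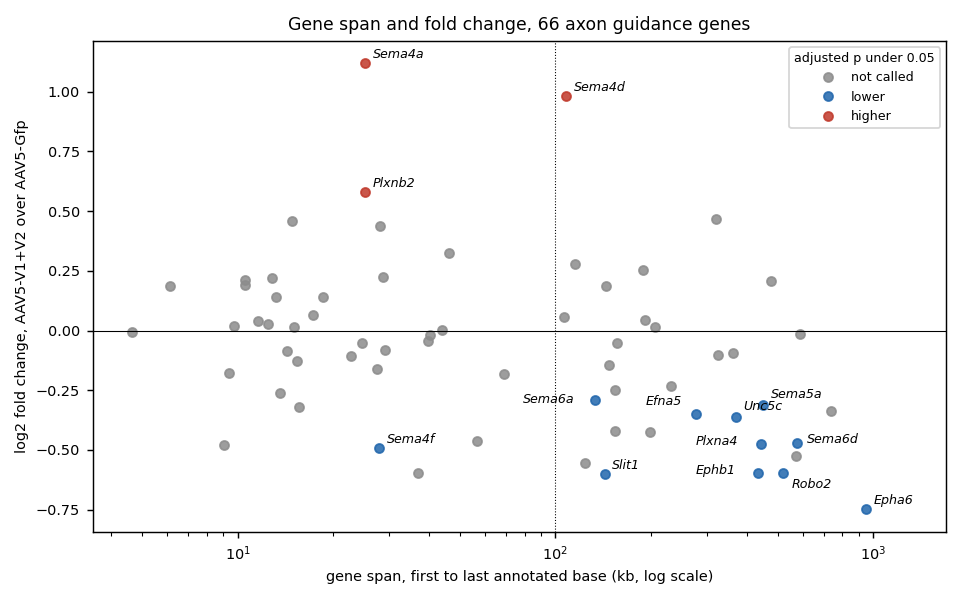
Log2 fold change (y axis, TMM scaling) against gene span (x axis, kb, log scale) for the 66 guidance genes, with a dotted line at 100 kb. Of the 11 lower genes (blue) 10 lie to the right of the line, at log2 fold changes from -0.75 to -0.29. When libraries are scaled to neuron markers, Plxna4, Unc5c, Efna5, Sema5a, and Sema6a have values from 0.0018 to 0.20, none past the threshold. With that scaling the median of all genes tested is 0.48.

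Genes that work beside the ligands and receptors were counted from 2 lists. Of 25 co-receptors, other cue receptors, and further cues, 7 were lower and 1 higher, with a median log2 fold change of -0.28 (5.27% and 10.1% of all genes tested were lower and higher). The lower ones with the smallest adjusted p were *L1cam*, an adhesion molecule of axons (-0.53, adjusted p = 0.0234), *Rtn4rl1*, of the Nogo receptor family (-0.53, adjusted p = 0.0278), and *Neo1*, a receptor of netrins and RGM proteins (-0.30, adjusted p = 0.0301). *Flrt2*, a ligand of Unc5 receptors, was the higher one, at 63.5, 64.1, and 62.5 CPM after AAV5-*Gfp* and 80.8, 86.3, and 86.9 CPM after AAV5-*V1+V2* (log2 fold change 0.42, adjusted p = 0.0144). Of 39 cytoplasmic effectors, 5 were lower and 5 higher, with a median of -0.04. The higher ones were a share near that of all genes, and the lower ones a share above it, though the counts are small. *Dpysl5*, a collapsin response mediator protein of neurons, was lower (-0.76, adjusted p = 0.0144), as was *Srgap1*, a GTPase-activating protein that acts downstream of Robo receptors (-0.64, adjusted p = 0.0182). *Rac2*, the Rac GTPase of blood cells (2.24), and *Vav1*, a Rac exchange factor of the same cells (2.25), were higher, each with an adjusted p of 0.0144. Scaled to neuron markers, 0 genes of these lists were lower and 11 were higher, and the sign of *Neo1* turned. With that scaling 19 of all 18593 genes tested were lower and 3387 higher, so that these counts were near the shares of all genes.

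Reads could be shared with other genes at few exonic bases. Of the 14 called genes, *Epha6*, *Ephb1*, *Plxna4*, and *Unc5c* overlap an exon of another gene on the opposite strand, over at most 2.17% of their exonic bases, and *Sema4a* overlaps a microRNA gene on its own strand over 1.35%. The libraries were stranded, but whether counting used the strand is not given in the sources used here.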

How the data were processed

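RNA was sequenced from 6 libraries of microinjected DRGs, made with a stranded total RNA kit. The deposited values are raw counts of reads for each gene symbol, whole numbers that the authors did not normalize, with 1 column for each library. Per the labels the genome build was GRCm38 (mm10), and the aligner, the counter, the annotation, and the treatment of multi-mapping reads are not given in the sources used here. Total counts were between 32025612 and 34764282 per library.

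Genes were filtered by filterByExpr and normalized by TMM, and the groups were compared with glmQLFit and glmQLFTest (edgeR 4.0.16, R 4.3.3) without a covariate. P-values were adjusted by Benjamini-Hochberg over all 18593 genes tested, and the standard error is the absolute log2 fold change divided by the square root of F. Alternatives used limma 3.58.1 and DESeq2 1.42.0. The calculations were tested on simulated data. Counting error alone makes no pair of libraries of a group differ this much (chi-square per degree of freedom from 8.83 to 52.8), so that all 6 were kept as separate samples.

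CPM are counts per 1000000 of the TMM-scaled library. Exon length, span, and position come from GENCODE M21 (GRCm38), which held all 70 symbols, and upstream sequences from RefSeq (GRCm38.p6). The members and lists were chosen with earlier results of these data known. Named are all called genes, the 2 genes of each family with the highest level per kilobase, those not tested, and at most 4 called genes of each further list by adjusted p. The gene of *NIS-lncRNA* itself was not analysed here.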

Additional observations from a re-analysis of the deposited data

How the results depend on the processing

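The 16 alternatives gave the following. The number of higher guidance genes was 3 in the analysis as reported, 5 with DESeq2, 1 with limma-voom, and 6 with scaling to neuron markers. The number of lower ones was 11, against 17 with DESeq2, 19 with limma-voom with sample weights, 17 with the replicate number as a block, and 0 with scaling to neuron markers, which was added after the data were seen. Among all genes, 980 were lower as reported. That number was 1606 with DESeq2, 1995 with sample weights, 1341 with the block, and 19 with neuron scaling. Higher calls among all genes were 1872 as reported, 2405 with DESeq2, 1421 with limma-voom, and 3387 with neuron scaling. In each of these settings the number among all genes thus shifted in the same direction as that of the guidance genes. The sizes of the shifts were not compared, since the counts of guidance genes are small. Leaving out 1 library at a time gave 0 to 4 higher and 0 to 16 lower genes. It was 1 higher and 2 lower without AAV5-*V1+V2* replicate 2. Lower calls among all genes were 59 without AAV5-*Gfp* replicate 1, and 0 without replicate 2 or without replicate 3. Other genes of the pathway were lower in 12 cases as reported, in 19 with DESeq2, in 20 with sample weights, and in 0 with neuron scaling, where 11 were higher against 6. Leaving out 1 library gave 0 to 9 higher and 0 to 15 lower of these. Whether the replicate numbers pair the libraries cannot be decided here, since all correlations were weak. Those of same-numbered deviations were 0.04, 0.06, and 0.14, and those of different numbers ran from -0.14 to 0.07. AAV5-*Gfp* replicate 2 correlated best with another number.

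Among genes called or more than 1 standard error from 0, signs turned in the scaling to neuron markers alone, which moved the median of all genes to 0.48 and gave 99.4% of called genes as higher, against 65.6%. There the log2 fold change was 0.14 for *Efna5*, 0.0018 for *Plxna4*, 0.19 for *Sema5a*, 0.20 for *Sema6a*, and 0.11 for *Unc5c*, and, among genes not called or of the further lists, 0.28 for *Efna1*, 0.40 for *Epha5*, 0.036 for *Epha7*, 0.038 for *Plxna2*, 0.15 for *Plxna3*, 0.24 for *Plxnc1*, 0.13 for *Robo1*, 0.38 for *Sema7a*, and 0.18 for *Neo1*. For the 45 named genes, 577 of 720 values stayed on their side of the threshold with no change of sign, where uncalled genes within 1 standard error of 0 were given no direction, 94 lost the threshold, and 35 gained it. With total counts *Sema5a* (adjusted p = 0.0743) and *Unc5c* (0.0529) did not pass in edgeR's test. The cause of the loss without an AAV5-*Gfp* library was not tested.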
